A study of Mus musculus with 6 samples.

Results

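The genes of platelet-derived growth factor (PDGF) signaling were compared between RNA libraries of monocytes isolated from the mandible and from the femur. All 6 genes that encode a PDGF ligand or a PDGF receptor were taken from the count table by gene name, out of 57010 genes: the ligand genes Pdgfa, Pdgfb, Pdgfc and Pdgfd and the receptor genes Pdgfra and Pdgfrb. Each name occurred once. RNA was sequenced in 6 libraries of C57BL/6 mice (C57Bl/6J in the methods) aged 1 year, of which S13, S15 and S18 held femur-derived monocytes (n = 3) and S16, S19 and S23 mandibular-derived monocytes (n = 3). Marrow was flushed from the bones, and antibodies with magnetic beads held other cells on a column while the unbound cells were kept as monocytes. The labels separate the groups by the bone, with no genotype or treatment between them. Mice of both sexes were used, but the sex and the animal of each library are not given in the sources used here. Whether each library of a group came from its own animal is not stated, although sex-linked transcripts set S23 apart from the other mandible libraries, so p-values measure only the spread between these libraries.

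PDGF ligands are secreted dimers that bind receptor tyrosine kinases on the cell surface. The chains encoded by Pdgfa and Pdgfb are cut to their active form inside the cell, whereas those encoded by Pdgfc and Pdgfd carry an inhibitory CUB domain that is removed outside the cell. The receptor encoded by Pdgfra binds the A, B and C chains, and the receptor encoded by Pdgfrb binds the B and D chains. In bone, Pdgfra is a known marker of mesenchymal progenitors and Pdgfrb of pericytes and stromal cells, while platelets and cells of the osteoclast lineage are known sources of ligand.

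The libraries held 15718782 to 25371474 counts on genes, and the 3 counts that a listed 0 still permits came to 0.118 to 0.191 CPM (counts scaled to a common library size). Such limits cover counting error only. Femur library S15 stood apart, with at least 1 count in 40494 genes, against 17481 to 23513 genes in the others. Mandible library S23 had 1602 CPM of Xist, which coats the inactive X chromosome, and 0 counts over Uty, Kdm5d, Eif2s3y and Ddx3y of the Y chromosome. In the others Xist was at most 0.606 CPM and these Y-linked genes held 2772 to 4590 counts. The pattern of S23 was thus found in the mandible group alone, and the groups were not matched in sex-linked transcripts. The monocyte markers were present in both groups, and their summed level was 8383 to 14984 CPM (femur) and 7049.8 to 12586 CPM (mandible) after TMM scaling (trimmed mean of M values). Lyz2 and F13a1 were the most abundant of them. Of the 12, 0 were called (edgeR quasi-likelihood test), against 3.88% of all tested genes called higher and 1.30% lower. At an unadjusted p under 0.05 the number was 2, and DESeq2 called 1.

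Both receptor genes and 1 ligand gene, Pdgfd, were higher in the mandible libraries, by 3.55-fold for Pdgfrb, 13.2-fold for Pdgfra and 11.4-fold for Pdgfd. A gene was called when its Benjamini-Hochberg adjusted p over all tested genes was under 0.05 and its fold change at least 2, with the femur as baseline. All 6 genes passed the filter on low counts. The 3 calls stand beside 3.88% of the 18114 tested genes called higher in the mandible. None of the 6 was called lower, where 1.30% of tested genes were. At an unadjusted p under 0.05 the edgeR test had 4 of the 6 higher and 0 lower, and DESeq2 called 4 higher and 0 lower. Over all genes DESeq2 also called more, 1203 higher and 543 lower, against 702 and 236 by the edgeR test. Its counts for every list stand beside these numbers. The share of all genes at an unadjusted p under 0.05 is not given. In a bulk library, more cells of a type and more RNA per cell cannot be told apart. The libraries also held markers of cells other than monocytes, such as Col1a1 at 5801.5 CPM in the mandible. Which cells held the PDGF transcripts was not tested.

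Pdgfra encodes the receptor that marks mesenchymal progenitors, and it occupies 75152292 to 75198215 of chromosome 5 (GRCm38, plus strand). Its counts were 107, 170 and 184 in femur libraries S13, S15 and S18, and 1333, 1856 and 2352 in mandible libraries S16, S19 and S23. Every mandible library was far above every femur library. The level was 7.29 ± 1.20 CPM (femur) and 96.4 ± 34.7 CPM (mandible) (TMM-scaled, SD, n = 3 each). The log2 fold change was 3.72 (standard error 0.34, 95% interval 2.98 to 4.47), with an adjusted p of 0.00012 in the edgeR quasi-likelihood test. By p it ranked 40 among the tested genes. With the trend with gene length removed from each library, the log2 fold change was 3.09 and still called. Leaving out 1 library gave 3.35 (without S23, the library with Xist) to 3.93 (without S16), each time called.

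Pdgfrb encodes the receptor typical of pericytes, and its gene occupies 61045150 to 61085061 of chromosome 18 (GRCm38). It had 343, 334 and 273 counts in the femur libraries S13, S15 and S18, against 904, 994 and 1262 in the mandible libraries S16, S19 and S23. The groups did not overlap, and S23 was the highest library for both receptors. Mean levels were 15.5 ± 3.44 CPM and 54.9 ± 15 CPM (SD, n = 3 each). The log2 fold change of 1.83 (standard error 0.31, 95% interval 1.14 to 2.52) was called, with an adjusted p of 0.0058 (edgeR quasi-likelihood test). It was 1.53 without S23 and 2.0 without S13, the lowest and highest of the fits with 1 library left out, and stayed called in each.

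Mandibular libraries differed from femur libraries in the balance of the receptors as well. Read as counts per kilobase of gene length, Pdgfra made up 14.6, 21.8 and 26.9% of the receptor signal in S13, S15 and S18. In S16, S19 and S23 it was 44.6, 50.5 and 50.5%. Thus the femur libraries held mostly Pdgfrb, and the mandible libraries held about as much of one as of the other. The log2 ratio of Pdgfra to Pdgfrb counts was 1.86 higher in the mandible, with p = 0.1 by an exact permutation test (two-sided), the smallest that 3 against 3 libraries can give. This ratio was chosen after the values were seen, does not depend on how the libraries were scaled, and ran from 1.56 to 2.11 when 1 library was left out.

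**Figure D1:**
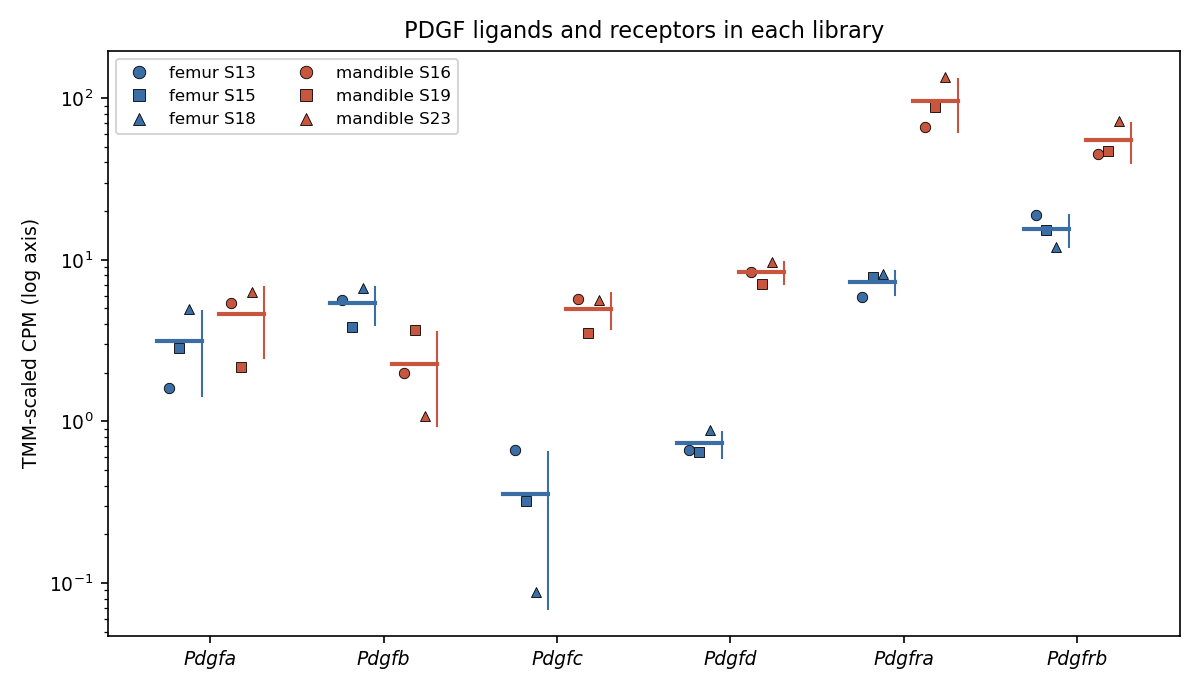
Level of each PDGF gene in each library, as TMM-scaled CPM on a log axis, with femur libraries in blue, mandible libraries in red, a bar at each group's mean and a vertical line for ± 1 SD (n = 3). The mandible points of Pdgfc, Pdgfd, Pdgfra and Pdgfrb lie above all femur points, those of Pdgfb lie below them, and those of Pdgfa overlap them.

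Pdgfd encodes the ligand chain that acts through the receptor of Pdgfrb, and occupies 6168584 to 6378850 of chromosome 9 (GRCm38). Its counts were 12, 14 and 20 in the femur (S13, S15, S18) and 169, 149 and 170 in the mandible (S16, S19, S23). The mandible libraries were close to each other and well above the femur libraries. The level was 0.73 ± 0.13 CPM for the femur and reached 8.42 ± 1.33 CPM for the mandible (SD, n = 3 per bone). The log2 fold change was 3.51 (standard error 0.67, 95% interval 2.03 to 5.0, adjusted p = 0.011, edgeR quasi-likelihood test). The size held between 3.34 and 3.68 with 1 library left out, but the call was lost without femur S13 (adjusted p = 0.058) and without mandible S19 (adjusted p = 0.060), both in the edgeR quasi-likelihood test.

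Pdgfc encodes a ligand chain of the same CUB-bearing kind, which acts through the receptor of Pdgfra, and lies on chromosome 3 from 81036416 to 81214040. It had 12, 7 and 2 counts in the femur libraries S13, S15 and S18, and 114, 74 and 99 counts in the mandible libraries S16, S19 and S23. The groups were far apart, yet the femur value rests on 21 counts in all, and S18 is below the limit of 3 counts. Levels were 0.36 ± 0.29 CPM and 4.96 ± 1.25 CPM (SD, n = 3 each). The log2 fold change of 3.78 had a standard error of 1.04 and a 95% interval of 1.5 to 6.06, and was not called (adjusted p = 0.064, edgeR quasi-likelihood test). DESeq2 (adjusted p = 0.00028) and the edgeR exact test (adjusted p = 0.010) called it with the same counts, while limma-voom did not (adjusted p = 0.12). It was not called in any fit with 1 library left out, where the log2 fold change ran from 3.32 to 4.57.

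The genes of the classical ligands did not pass the test. Pdgfb encodes the chain that binds both receptors and lies on chromosome 15 from 79995874 to 80014977. It had 102, 83 and 151 counts in S13, S15 and S18 and 40, 78 and 19 in S16, S19 and S23. Every mandible library was below every femur library once scaled, but S19 (3.70 CPM) and S15 (3.82 CPM) lay close together. Levels were 5.38 ± 1.44 CPM (femur) and 2.26 ± 1.33 CPM (mandible) (SD, n = 3 each), which is -1.24 on the log2 scale (standard error 0.74, 95% interval -2.87 to 0.39, adjusted p = 0.48, edgeR quasi-likelihood test). It ran from -1.85 without S19 to -0.97 without S23. Pdgfa encodes the chain that binds the receptor of Pdgfra alone, and lies on chromosome 5 from 138976014 to 138997370. Its counts were 29, 62 and 112 in the femur libraries and 108, 46 and 110 in the mandible libraries, in the same order, and the groups overlapped. Levels were 3.14 ± 1.69 and 4.63 ± 2.16 CPM (SD, n = 3 each), and the log2 fold change of 0.56 had a 95% interval of -1.10 to 2.22 (adjusted p = 0.82, edgeR quasi-likelihood test). It was 0.22 without S23 and 1.06 without S18. The exons of Pdgfa share 813 bases with the antisense gene 6330403L08Rik, which had 43, 87 and 45 counts in the femur and 0, 83 and 94 in the mandible. Whether counting used the strand of the reads is not given in the sources used here, so reads of this pair may not have been told apart.

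**Figure D2:**
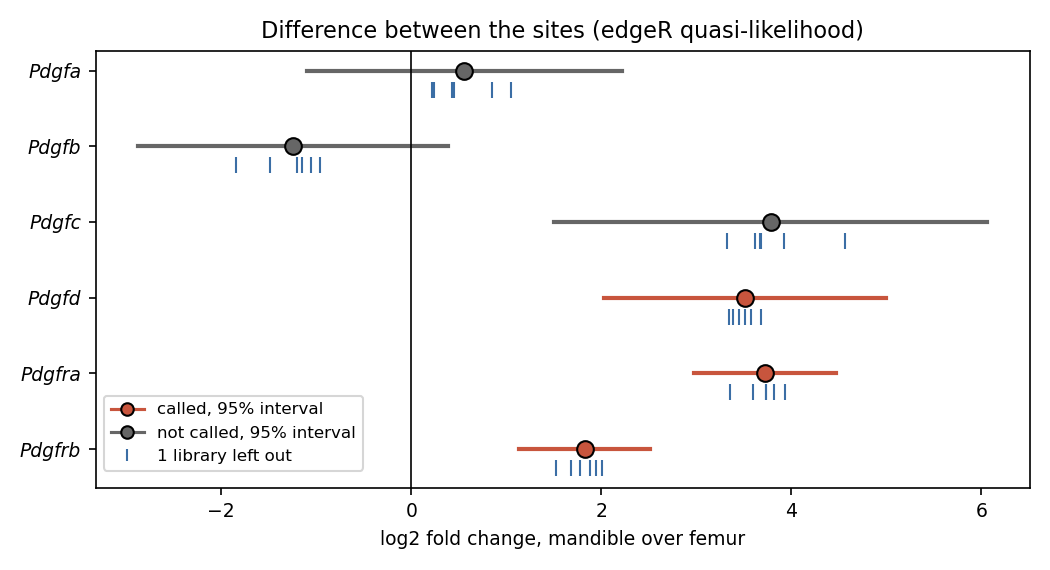
Log2 fold change of each PDGF gene, mandible over femur (edgeR quasi-likelihood fit), with its 95% interval as a bar and blue ticks for the fits that each left out 1 library. Pdgfra, Pdgfrb and Pdgfd are called (red), the bar of Pdgfc lies above 0 without a call after adjustment, and the bars of Pdgfa and Pdgfb cross 0.

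Over the members, every mandible library lay above every femur library in 4 of 6 genes (Pdgfc, Pdgfd, Pdgfra and Pdgfrb), against 12.7% of all tested genes. In 1 of 6, Pdgfb, every mandible library lay below, against 11.5% of all tested genes. For each of these 5 genes an exact permutation test (two-sided, on log2 CPM) gave p = 0.1, its smallest value (0.12 after Benjamini-Hochberg adjustment over the 6 genes), and for Pdgfa it gave p = 0.5.

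The promoters of the 3 members whose fitted levels differed by more than 10-fold are printed to show the sequence at their starts. Each is 250 bases before and 50 bases after the RefSeq start of transcription on GRCm38.p6, 5′ to 3′ on the plus strand, on which all 3 genes lie. They span chr5:75152001-75152300 (Pdgfra), chr3:81036166-81036465 (Pdgfc) and chr9:6168236-6168535 (Pdgfd), and capitals mark a match to the motifs searched.
Pdgfra promoter: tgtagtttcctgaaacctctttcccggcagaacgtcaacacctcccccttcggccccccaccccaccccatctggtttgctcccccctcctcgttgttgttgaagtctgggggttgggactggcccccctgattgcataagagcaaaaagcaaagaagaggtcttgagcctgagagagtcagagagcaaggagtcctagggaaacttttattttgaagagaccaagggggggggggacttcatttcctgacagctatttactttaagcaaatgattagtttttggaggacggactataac
Pdgfc promoter: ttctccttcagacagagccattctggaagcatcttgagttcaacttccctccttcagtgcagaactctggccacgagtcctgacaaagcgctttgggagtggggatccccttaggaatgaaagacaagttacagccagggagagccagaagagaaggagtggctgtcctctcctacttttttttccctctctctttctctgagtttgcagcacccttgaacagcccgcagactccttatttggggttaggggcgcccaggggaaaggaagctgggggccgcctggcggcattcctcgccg
Pdgfd promoter: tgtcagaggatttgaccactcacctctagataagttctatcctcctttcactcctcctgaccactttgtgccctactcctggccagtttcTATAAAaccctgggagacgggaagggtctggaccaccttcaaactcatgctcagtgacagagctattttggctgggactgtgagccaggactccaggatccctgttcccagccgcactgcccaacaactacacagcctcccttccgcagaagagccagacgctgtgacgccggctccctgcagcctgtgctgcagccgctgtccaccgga
Both strands were searched for the TATA box (TATAAA), the CCAAT box (CCAAT) and the GC box (GGGCGG). The only match in the 3 windows was TATAAA in Pdgfd, whose first base lies 160 bases before the start. Of the 32851 promoter windows of this length, 13.6% hold TATAAA, 37.4% hold CCAAT and 35.7% hold GGGCGG. The letters G and C made up 51.0% of the Pdgfra, 55.0% of the Pdgfc and 56.7% of the Pdgfd window, against a median of 52.7% over all windows. The Pdgfa windows at its alternative starts held 67.0 and 73.3%, with 3 matches to GGGCGG between them. No window is given for Pdgfb or Pdgfrb, so no comparison of promoters between members that differed and members that did not can be drawn.

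Levels of different genes were compared per kilobase of the gene length in the count table (RPKM, from TMM-scaled CPM). In the femur libraries Pdgfrb was the highest, at 2.82 ± 0.63 RPKM, followed by Pdgfb (1.29 ± 0.35), Pdgfa (1.01 ± 0.54), Pdgfra (0.73 ± 0.12), Pdgfd (0.23 ± 0.04) and Pdgfc (0.070 ± 0.057, all SD, n = 3). The libraries of Pdgfb overlapped those of Pdgfa, and those of Pdgfa overlapped those of Pdgfra. Within each femur library Pdgfb was above Pdgfa, though barely in S15 (0.919 against 0.916 RPKM). Pdgfa was below Pdgfra in S13 and above it in S15 and S18. In the mandible libraries the order in RPKM was Pdgfrb (10.02 ± 2.74), Pdgfra (9.62 ± 3.46), Pdgfd (2.67 ± 0.42), Pdgfa (1.48 ± 0.69), Pdgfc (0.97 ± 0.25) and Pdgfb (0.54 ± 0.32, all SD, n = 3). There the receptors overlapped each other, and Pdgfa, Pdgfc and Pdgfb overlapped from neighbour to neighbour. Within each mandible library Pdgfa was above Pdgfc, though barely in S19 (0.700 against 0.690 RPKM). With the length of the longest transcript in place of the gene length, Pdgfra (14.1 RPKM) stood above Pdgfrb (10.1 RPKM) in the mandible.

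The ligand genes changed places between the bones. Pdgfb held 61.3, 43.7 and 46.0% of the summed ligand RPKM in S13, S15 and S18, and 8.0, 19.7 and 4.03% in S16, S19 and S23. Pdgfc and Pdgfd together held 15.4, 12.7 and 8.53% in those femur libraries and 63.2, 64.8 and 64.8% in those mandible libraries. Neither share overlapped between the bones (p = 0.1 for each by the exact permutation test, again the smallest possible). These shares were not among the planned tests. They are made from the member levels above, where Pdgfb lay lower and Pdgfc and Pdgfd higher in every mandible library. Their separation is thus no separate support. Summed over the receptors the level was 3.01 to 4.05 RPKM for the femur against 14.9 to 26.6 RPKM for the mandible, and summed over the ligands 2.1 to 3.49 and 4.52 to 6.47 RPKM. The sum of receptor genes was 0.86 to 1.83 times that of ligand genes in the femur libraries and 2.48 to 4.11 times in the mandible libraries.

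**Figure D3:**
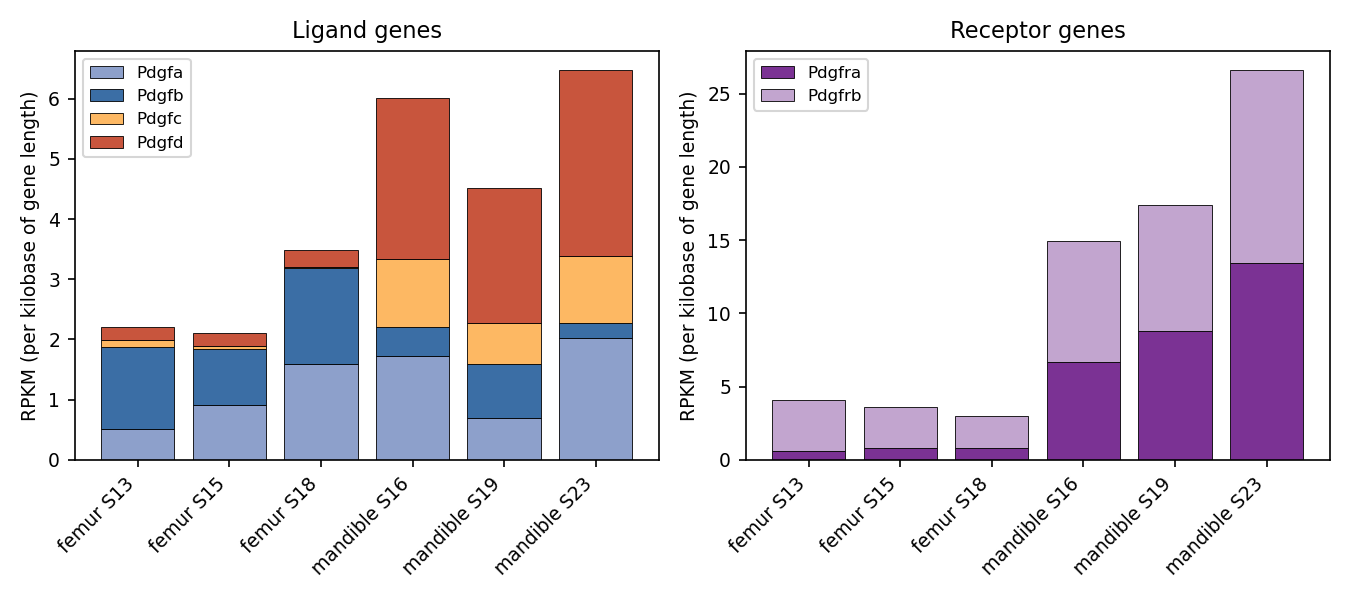
Stacked RPKM of the 4 ligand genes (left) and of the receptor genes (right) in each library, with bars starting at 0. Pdgfc and Pdgfd fill 63.2 to 64.8% of the ligand bars in the mandible, and Pdgfra fills 14.6 to 26.9% of the femur receptor bars and 44.6 to 50.5% of the mandible ones.

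For each member, the genes with the most similar profile were taken by the root mean square distance of log2 CPM over the 6 libraries, each gene centred on its own mean, among 18108 tested genes outside the family. Ptgfrn (distance 0.18), the thrombospondin gene Thbs3 (0.21) and the cadherin family gene Fat1 (0.24) were closest to Pdgfra. Zfp827 (0.091), the B cell and stromal transcription factor gene Ebf1 (0.12) and Zbtb4 (0.15) were closest to Pdgfrb. Car3 (0.21), the insulin receptor substrate gene Irs1 (0.22) and the syndecan gene Sdc4 (0.26) were closest to Pdgfd, and S100a16 (0.29), Vldlr (0.32) and the procollagen C-proteinase enhancer gene Pcolce (0.38) to Pdgfc. The choice by distance over the same libraries fixed that these 12 genes, like the members, lay higher in the mandible. Closest to Pdgfb were Zfp991 (0.13), Harbi1 (0.13) and Syce2 (0.15), and to Pdgfa Gm42876 (0.20), Bloc1s2-ps (0.26) and Zfp3 (0.28).

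Around the family, the genes of proteins that process or bind PDGF had more calls than any other pathway list. The lists were chosen with earlier results of these data known, so their numbers of calls only describe the genes listed. All 20 genes of the processing and binding list were tested, and 16 lay above 0. Their median log2 fold change was 1.31, against -0.038 over all tested genes. The number called was 5 higher and 1 lower, against 3.88% and 1.30% of all tested genes. At an unadjusted p under 0.05 there were 12 higher and 1 lower, and DESeq2 called 8 and 1. DESeq2 called more genes than the edgeR test over the whole table as well. Cd248 encodes endosialin, a surface protein of stromal cells and pericytes. It had 4, 12 and 4 counts in S13, S15 and S18 and 861, 1214 and 1160 in S16, S19 and S23, a log2 fold change of 7.42 (standard error 0.50). Sparc, whose matrix protein binds the B chain, rose from 17.3 ± 4.66 to 669 ± 86.8 CPM (SD, n = 3 each), 5.27 on the log2 scale (standard error 0.35). Adjusted p was 1.3e-05 for Cd248 and for Sparc alike (edgeR quasi-likelihood test). Pcsk5, a proprotein convertase gene, and Lox, the gene of lysyl oxidase, rose by 4.15 and 2.60. The integrin chain genes went opposite ways, Itgav with a log2 fold change of 1.02 (adjusted p = 0.042) and Itgb3 with -1.67 (adjusted p = 0.0051, edgeR quasi-likelihood test). Lrp1, a co-receptor of the receptor of Pdgfrb and the most abundant gene of the list, was 347 ± 223 CPM (femur) and 1058 ± 111.6 CPM (mandible) (SD, n = 3 each, adjusted p = 0.060, edgeR quasi-likelihood test) and was not called. Plat, whose protease activates the C chain, and Pdgfrl, a receptor-like gene, had femur counts in S15 alone, 24 and 12, and mandible counts of 66 to 181 and 11 to 108. The list had 10 calls higher without S15, 3 without S13, S19 or S23, and 0 lower without S19. Itgav was not called without S13, S18, S19 or S23, and Pcsk5 not without S13, S16, S19 or S23. Pcsk5 also lost its call under DESeq2 and without normalization factors, and Itgav under limma-voom, with every gene tested, at a mean CPM of at least 1, with the length correction and without ribosomal RNA genes.

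Inside the cell, the signal carriers of PDGF receptors mostly lay near 0. Of 30 such genes 29 were tested, with a median log2 fold change of 0.28, 2 called higher and 0 lower, against 3.88% and 1.30% of all tested genes (6 and 2 at an unadjusted p under 0.05, and 2 and 0 by DESeq2). Grb10, an adaptor of receptor tyrosine kinases, had 60, 68 and 29 counts in the femur and 357, 725 and 1359 in the mandible, 4.07 higher on the log2 scale (standard error 0.59, adjusted p = 0.0023, edgeR quasi-likelihood test). Yes1, a Src family kinase gene, was 2.28 higher on that scale (adjusted p = 0.049, edgeR quasi-likelihood test), a call that was lost without any 1 of the 6 libraries, so that 1 call was left in each. The most abundant carriers, Akt1 and Ptpn11, were at 0.19 and -0.01. Of 21 negative regulators 20 were tested, with a median of 0.05, and 1 was called higher (3.88% of all tested genes were), the receptor phosphatase gene Ptprk (4.41, standard error 0.96, adjusted p = 0.021, edgeR quasi-likelihood test). At an unadjusted p under 0.05 there were 4 higher and 1 lower, and DESeq2 called 2 higher. Ptprk was not called without S13, S19 or S23, which left 0 calls in the list, and without S15 the list had 2 calls higher and 1 lower. Cbl, whose ubiquitin ligase sends the receptors to degradation, and Ptpn1 were the most abundant, at 0.05 and 0.19.

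Of 20 early genes that PDGF is known to induce in fibroblasts, 19 passed the filter, and 17 of these were above 0 (47.8% of all tested genes were), at a median log2 fold change of 0.46. The number called was 2 higher, against 3.88% of all tested genes, and 0 lower, with 6 higher at an unadjusted p under 0.05 and 5 by DESeq2. Egr1, a zinc finger factor, rose from 329, 267 and 705 counts in the femur to 3555, 3754 and 2992 counts in the mandible, by 3.10 on the log2 scale (standard error 0.35, adjusted p = 0.00045, edgeR quasi-likelihood test). Nr4a1 rose by 1.25 (adjusted p = 0.047, edgeR quasi-likelihood test) and was not called without S13, S16, S18, S19 or S23. It also lost its call without normalization factors, at a mean CPM of at least 1, with the length correction and without ribosomal RNA genes. The most abundant genes of the list were not called, Fos at 0.51 and Jun at -0.35. The list had 1 call in place of 2 without S13, S16, S19 or S23. Whether PDGF acted on any of these genes here was not tested.

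None of the relatives of the family in the lists was called, where 3.88% of all tested genes were called higher and 1.30% lower. In lists of 9 and 6 genes, 0 calls is close to these shares. Of the 9 other ligand genes of the PDGF/VEGF family and of class III receptors, all were tested and 0 were called (0 at an unadjusted p under 0.05, and 0 by DESeq2). Their log2 fold changes reached 3.51 in Vegfd, which had 0, 13 and 0 counts in S13, S15 and S18 and 39, 3 and 87 in S16, S19 and S23 (adjusted p = 0.44, edgeR quasi-likelihood test). Vegfa, the best known ligand of endothelial growth, was 23.3 ± 10.2 CPM (femur) and 29.6 ± 9.95 CPM (mandible), and Csf1 was 19.7 ± 4.16 and 26.0 ± 10.03 CPM (SD, n = 3 each). Of the 6 other class III and VEGF receptor genes 0 were called (1 at an unadjusted p under 0.05, Flt4, and 0 by DESeq2). Csf1r, the receptor gene of the monocyte lineage and a close relative of the PDGF receptors, was 245 ± 78.1 CPM (femur) and 385 ± 96.2 CPM (mandible) (SD, n = 3 each), a log2 fold change of 0.65 (adjusted p = 0.38, edgeR quasi-likelihood test). Kit, next in abundance, was at -0.80 (adjusted p = 0.53, same test).

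**Figure D4:**
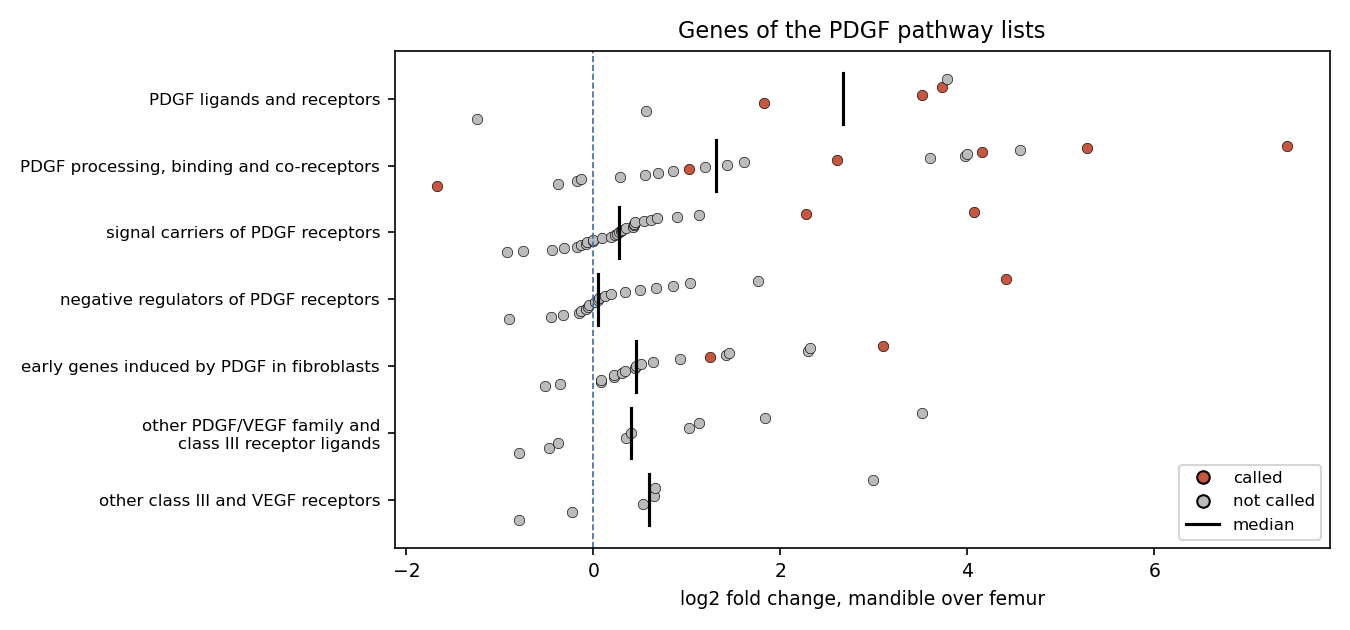
Log2 fold change, mandible over femur, of each tested gene of the PDGF pathway lists, with called genes in red, other genes in grey and a black line at each list's median. The medians of the members and of the processing and binding genes are 2.67 and 1.31, and those of the other lists lie between 0.05 and 0.59, while single genes of other lists, such as Ptprk (4.41) and Grb10 (4.07), lie above every member.

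Markers of other cell types also differed between the bones, some lists being higher in the mandible and some lower. Over all tested genes 3.88% were called higher and 1.30% lower, and a list with 1 call rests on that gene alone. Of 19 tested markers of mesenchymal stroma and osteoblasts, led by Col1a1 and Col1a2, 15 were called higher in the mandible, and the summed level of the list was 377 to 492 CPM (femur) and 9369 to 16417 CPM (mandible). Cxcl12, a chemokine gene of marrow stroma in this list, went the other way, from 190.0 to 71.1 CPM (log2 fold change -1.42, adjusted p = 0.084, edgeR quasi-likelihood test), and DESeq2 called it lower, and Lepr was at -0.44. Mural and smooth muscle markers summed to 34.2 to 54.6 CPM and 278.5 to 636 CPM, with Des and Myh11 at the top, 5 of 11 tested called higher and Higd1b at 0 counts in every mandible library and 0, 9 and 0 in S13, S15 and S18. Enamel epithelium markers, led by Amelx and Ambn, went from 10.6 to 12.1 CPM up to 5816.5 to 11389 CPM, with 8 of 12 called higher and Odam at 0 counts in every femur library. Megakaryocyte and platelet markers, led by Itga2b and Pf4, summed to 875 to 1239.7 CPM (femur) and 99.9 to 161 CPM (mandible), with 11 of 12 tested called lower and Gp1bb at 0 in every mandible library and 0, 0 and 8 in the femur. Endothelial markers, led by Pecam1 and Erg, summed to 72.3 to 100.9 CPM (femur) and 48.5 to 76.4 CPM (mandible), with 1 of 9 tested called lower, Cldn5 at 0 but for 4 counts in S19, and Sox17 at 0 but for 11 counts in S15. Neutrophil markers (S100a9 and Ngp the highest) summed to 3681 to 32747 and 3879.7 to 10243 CPM with 1 of 10 called lower, erythroid markers (Hba-a1 and Slc4a1) to 209 to 1464 and 93.1 to 172 CPM with 3 of 8 called lower, and B lineage markers (Cd79b and Ebf1) to 19.6 to 27.7 and 32.9 to 37.6 CPM with 1 of 7 called higher and Vpreb1 at 0 but for 10 counts in S15. The part of any of these cell types in the PDGF differences was not tested.

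Counts of the members were therefore also set against the marker lists of the same library, in 9 ratios. Pdgfra had 12.0, 19.6 and 21.6 counts per 1000 counts of the mesenchymal list in S13, S15 and S18, and 7.12, 6.97 and 8.19 in S16, S19 and S23. Pdgfrb had 38.5, 38.5 and 32.0 in the femur and 4.83, 3.73 and 4.40 in the mandible. So the receptors, though higher per library in the mandible, were lower per count of mesenchymal markers there, by 1.21 for Pdgfra and 3.07 for Pdgfrb on the log2 scale. Without Col1a1, the most abundant gene of the list, these differences were -0.44 and -2.30, and that of Pdgfd was -0.59. The bones then overlapped for Pdgfra and for Pdgfd. Cxcl12 made up 49.4, 37.1 and 47.3% of the list's counts in S13, S15 and S18 and at most 0.74% in the mandible libraries. Without Cxcl12 the differences were -2.06 for Pdgfra, -3.93 for Pdgfrb, -1.56 for Pdgfc and -2.21 for Pdgfd. Pdgfd had 1.35, 1.61 and 2.34 per 1000 in the femur and 0.90, 0.56 and 0.59 in the mandible, a log2 difference of -1.36. For Pdgfc the groups overlapped, with 1.35, 0.81 and 0.23 in the femur and 0.61, 0.28 and 0.34 in the mandible (log2 difference -0.71, 0.067 without Col1a1, and -1.43 without S18 or -0.16 without S13 as the extremes with 1 library left out).

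Set against mural markers, Pdgfrb had 553, 282 and 302 counts per 1000 in S13, S15 and S18 and 110.3, 169 and 114 in S16, S19 and S23. The log2 difference of -1.49 turned to 0.25 when Des, the most abundant gene of that list, was left out. Pdgfb had 55.9, 52.9 and 72.9 counts per 1000 endothelial counts in the femur and 26.2, 58.3 and 22.4 in the mandible, where S19 lay within the femur range. Per 1000 megakaryocyte and platelet counts it had 5.45, 4.37 and 5.38 in the femur and 12.7, 37.1 and 6.74 in the mandible, all higher. This log2 difference was 1.54, and 0.88 without S19. Pdgfa had 1.55, 3.26 and 3.99 per 1000 of the same markers in the femur and 34.2, 21.9 and 39.0 in the mandible. Against enamel markers it had 140.1, 268 and 407 per 1000 in the femur and 0.93, 0.30 and 0.55 in the mandible. In the femur Cdh1 led this list, with 177, 98 and 182 counts against 2, 5 and 7 of Amelx, which led in the mandible. The ratio thus sets Pdgfa against largely different genes in each bone. With the full lists, the bones were fully separated in 7 of the 9 ratios. Each had p = 0.1 by the exact permutation test, the smallest possible, and 0.13 after Benjamini-Hochberg adjustment over the 9. The ratios of Pdgfc to mesenchymal (p = 0.5) and of Pdgfb to endothelial markers (p = 0.3) overlapped, by the same exact test. All 7 separated ratios were set against lists whose own sums did not overlap between the bones, so this number is not a result about the members. Pdgfa, whose own levels overlapped, separated against such lists as well. How many other genes separate against them was not counted.

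**Figure D5:**
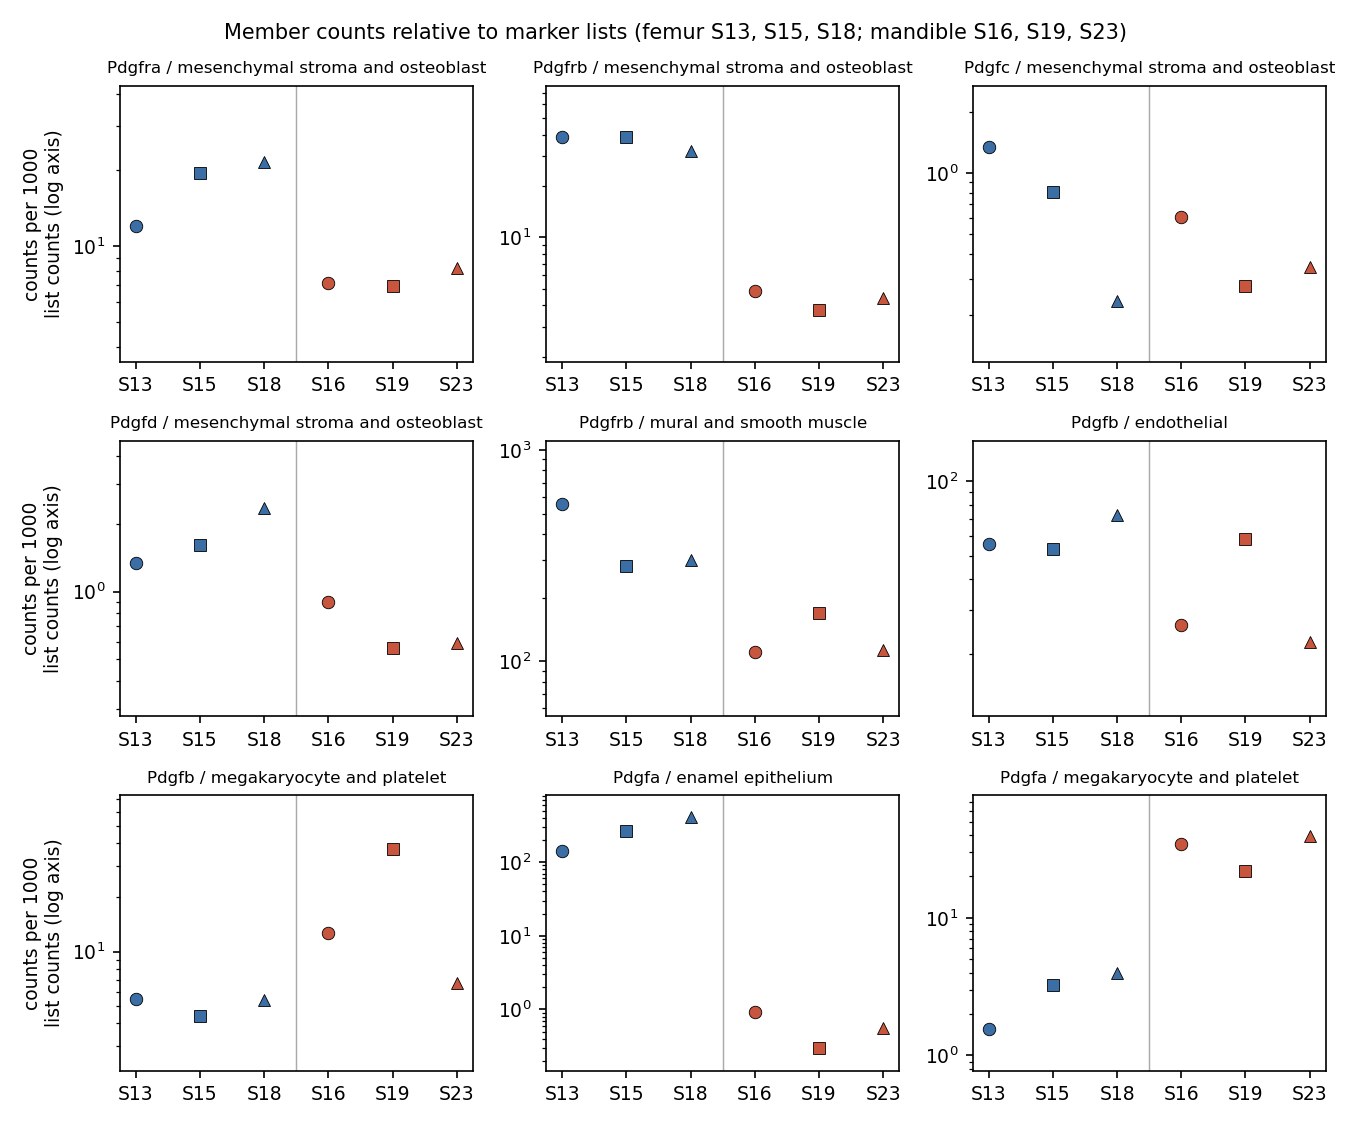
Counts of a PDGF gene per 1000 counts of a marker list in the same library (log axis), 1 panel for each of the 9 ratios, with femur libraries in blue left of the line and mandible libraries in red. Pdgfra, Pdgfrb and Pdgfd are lower in the mandible relative to the full list of mesenchymal markers. For Pdgfra and Pdgfd this separation is lost without Col1a1 (not drawn). Pdgfa and Pdgfb are higher in the mandible relative to megakaryocyte and platelet markers.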

How the data were processed

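Reads were quality-trimmed, aligned by HISAT2 2.1.0 and assigned to genes by featureCounts. The deposited table holds the raw counts from this step as the authors made them, not normalized. The methods name GRCm38, but only 2979 of 52081 gene intervals in the table lay inside the GENCODE M21 gene of the same Ensembl identifier, so positions were taken from M21. The gene lengths of all 6 members equalled the exon bases of M21.

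The main test of the whole table was edgeR's (version 4.0.16, R 4.3.3) quasi-likelihood test after TMM scaling (minimum count 10 in filterByExpr, prior count 0.125, no covariates), with Benjamini-Hochberg adjustment over 18114 genes. Alternatives used DESeq2 1.42.0, limma-voom (limma 3.58.1), edgeR's exact test, other scalings, filters and thresholds, and each library left out; a length correction (loess, span 0.4) and removal of ribosomal RNA genes, and marker ratios without Cxcl12, were added after the data were seen. On simulated data 85 of 185 genes changed 4-fold were called, and 7 unchanged genes.

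The members and gene lists were chosen with earlier results of these data known. Named were all members, and in each pathway list up to 4 called genes with the largest change in each direction and the 2 most abundant; in each marker list the 2 most abundant; and the 3 genes nearest to each member. Itgav, Plat, Pdgfrl, Vegfd, Flt4, Cxcl12 and Lepr were chosen after their values were seen. Xist and the Y-linked genes were named to describe the libraries.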

Additional observations from a re-analysis of the deposited data

How the results depend on the processing

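All 6 members kept the direction of their difference under every alternative run. Pdgfra and Pdgfrb were called in all 14 alternatives and all 6 fits with 1 library left out, with log2 fold changes of 3.09 (length correction) to 3.84 and 1.53 (length correction) to 1.95 under the alternatives. Pdgfd lost its call under limma-voom (3.47, adjusted p = 0.058, Benjamini-Hochberg) and at an adjusted p under 0.01 (3.51), and ran from 3.34 to 3.68 with 1 library left out. Pdgfc gained a call under DESeq2 (3.85) and edgeR's exact test (3.79), and was not among the genes holding 10 counts or more in each library, so that filter gave no value. Pdgfa and Pdgfb were never called.

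The members called higher numbered 2 to 4 over all alternatives. Over all tested genes 702 were called higher and 236 lower. The extremes were 1203 (DESeq2) and 384 (adjusted p under 0.01) higher and 571 (every gene with a count) and 61 (adjusted p under 0.01) lower, and with 1 library left out 376 to 957 and 58 to 608. Other counts of calls lower were 543 under DESeq2, 457 under the exact test and 157 without normalization factors. In the pathway lists the calls higher ran from 3 to 8 for processing and binding genes, 1 to 2 for signal carriers, 0 to 2 for negative regulators, 1 to 5 for early genes and 0 to 1 for other receptors under the alternatives with all libraries. Why these counts differ was not tested. No paired analysis was possible because the animal of each library is not given. Whether any femur and mandible libraries came from the same mouse is not known. The femur level of Pdgfc rests on 21 counts over 3 libraries.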
